A study of Mus musculus with 6 samples.

Results

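Basic helix-loop-helix (bHLH) proneural and differentiation factors were examined in motor neurons (MNs) made from mouse embryonic stem cells (mESCs). The 9 genes were Neurog1, Neurog2, Neurog3, Neurod1, Neurod4, Ptf1a, Atoh1, Insm1 and Nhlh1. They were taken by symbol, and all 9 were found among the 34433 gene symbols in the deposited table. For a symbol entered more than once, its most abundant entry was taken. RNA came from MNs of 2 mESC lines on an FVB/N background, with 3 samples sequenced per line. The control line, Hb9, has intact mouse Smn (SMN2+/+;mSmn+/+), and the SMA line, A2, lacks it (SMN2+/+;mSmn-/-). Both lines carry the human SMN2 transgene and HB9:eGFP, in which the promoter of Hb9 (Mnx1) makes MNs green. Their sorted cells are called Hb9 MNs and A2 MNs. Embryoid bodies of both lines received retinoic acid and a Smoothened agonist, and GFP-positive cells were collected by FACS. Each genotype is 1 cell line, so an effect of the genotype and other differences between the lines cannot be told apart.

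Proneural bHLH proteins bind E boxes in DNA as dimers with the broadly expressed E proteins, and they commit neural progenitors to become neurons. The neurogenins act first and switch on Neurod1, Neurod4 and Nhlh1, which carry differentiation forward in the newborn neuron. In the ventral spinal cord Neurog2 works together with Olig2 and the LIM homeodomain proteins Isl1 and Lhx3 when MNs are born. Notch signaling opposes these factors through Hes repressors, and Id proteins oppose them by capturing the E proteins. Atoh1 and Ptf1a belong to dorsal progenitors, and Insm1 is a zinc finger repressor made as progenitors leave the cell cycle.

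Levels are FPKM, fragments scaled to the length of the transcript and to the mapped total of the library. The authors' table gives 1 value per genotype for each gene or locus and not a value per sample. From 1 value per genotype no SD or test can be computed, the authors' own test columns were not used here, and each ratio compares the merged values of the 2 lines. Log2 ratios divide the A2 level by the Hb9 level, with no pseudocount. A gene was called lower or higher where the genotypes differed by at least 2-fold, with at least 1 FPKM in either and more than 0 FPKM in both. In bulk RNA, fewer cells of a type and less RNA per cell cannot be told apart.

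The coding sequence that the members share is shown first, because it bears on whether their reads can be told apart. The block is the in-frame stretch of Neurog2 that is most alike in the other members, and it encodes the DNA-binding basic region and helix-loop-helix. It spans bases 349 to 504 of the 789 coding bases of Neurog2 in GENCODE M21. Sequences run 5′ to 3′, and in every line after the first a capital marks a base that is the same in Neurog2.
Neurog2: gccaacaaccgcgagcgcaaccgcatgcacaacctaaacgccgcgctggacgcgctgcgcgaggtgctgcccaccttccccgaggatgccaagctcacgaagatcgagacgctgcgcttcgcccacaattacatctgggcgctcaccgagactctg
Neurog1: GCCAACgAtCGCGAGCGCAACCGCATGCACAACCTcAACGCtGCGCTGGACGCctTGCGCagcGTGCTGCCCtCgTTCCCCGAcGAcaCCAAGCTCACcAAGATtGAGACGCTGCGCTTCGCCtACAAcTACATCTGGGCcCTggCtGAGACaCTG
Neurog3: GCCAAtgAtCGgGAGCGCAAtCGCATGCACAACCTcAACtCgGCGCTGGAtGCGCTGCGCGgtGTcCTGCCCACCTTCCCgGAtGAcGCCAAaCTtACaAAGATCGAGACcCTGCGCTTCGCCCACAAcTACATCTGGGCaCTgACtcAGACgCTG
Neurod1: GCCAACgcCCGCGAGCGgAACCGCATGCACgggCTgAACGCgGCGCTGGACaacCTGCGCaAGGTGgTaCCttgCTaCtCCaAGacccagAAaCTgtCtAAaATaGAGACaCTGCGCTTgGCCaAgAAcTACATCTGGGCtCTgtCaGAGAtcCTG
Nhlh1: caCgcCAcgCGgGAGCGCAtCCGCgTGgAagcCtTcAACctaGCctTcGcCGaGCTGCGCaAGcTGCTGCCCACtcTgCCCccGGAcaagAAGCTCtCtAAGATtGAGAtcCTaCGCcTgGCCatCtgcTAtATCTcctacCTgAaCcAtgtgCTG

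Neurog1 shared 85.3% of these bases with Neurog2, Neurog3 shared 84.0% and Neurod1 shared 72.4%. The block was less alike in Nhlh1 (61.5%), Atoh1 (59.0%), Ptf1a (58.3%) and Neurod4 (56.4%). The best stretch of Insm1 reached 45.5%, and Insm1 is the member that encodes zinc fingers and not a bHLH domain. The name of the group therefore describes 8 of the 9 genes. Over all 36 pairs of members, the longest run of identical bases in their transcripts was 26, shared by Neurog1 and Neurog2. This is shorter than the reads of 50 bases before trimming, so no full-length read matches a pair of the transcripts compared exactly. Trimmed reads can be shorter, and matches with mismatches were not examined.

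Ptf1a and Atoh1 were under 1 FPKM in both genotypes and did not pass the filter. The 7 genes that passed it were each at least 2-fold lower in A2 MNs, beside 22.4% of the 14926 loci with a gene symbol that passed. None was at least 2-fold higher, beside 6.83% of those loci. With a limit of 4-fold, 6 of the 7 were lower, beside 8.88% of the loci. Neurog2 passed the filter only through its level in Hb9 MNs, and 6 members had at least 1 FPKM in both genotypes. These 6 were each lower by 2-fold or more, beside 17.8% of the loci at this level in both. The median log2 ratio was -3.98 over the 7 genes and -0.29 over the loci. Centring ratios on the median locus left all 7 called, whereas it moved the share of higher loci among those called from 23.4% to 38.8%.

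**Figure D1:**
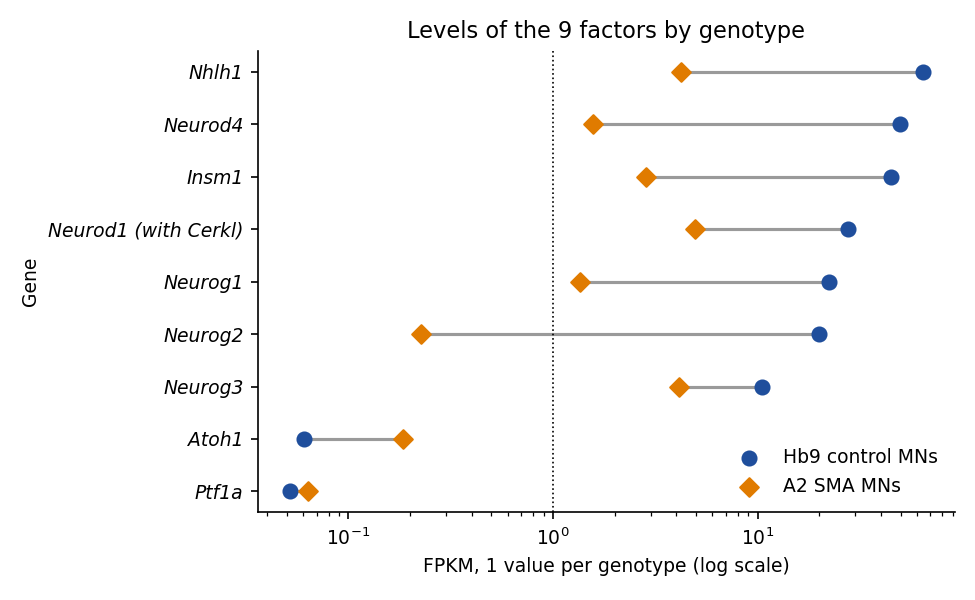
FPKM of the 9 factors in Hb9 MNs (circles) and A2 MNs (diamonds) on a log scale, 1 value per genotype, with a dotted line at 1 FPKM. Nhlh1 is highest in Hb9 MNs at 64.4 FPKM, Neurog2 has the longest line, and Atoh1 and Ptf1a lie left of the dotted line in both genotypes.

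Neurog2, the neurogenin of the MN lineage, had the lowest log2 ratio of the members without a pseudocount. Its locus is chromosome 3, 127336054 to 127338549 (build NCBI m37). The level was 19.9 FPKM in Hb9 MNs and 0.225 FPKM in A2 MNs, a log2 ratio of -6.47. Only 1.13% of the control level was left, and 11 of the 14926 loci had a lower ratio. With a pseudocount of 1 FPKM its log2 ratio was -4.10 and that of Neurod4 was -4.29, so the order of these genes turns with this setting. Neurog1, its close relative and best known in sensory neurons and the dorsal and intermediate neural tube, lies on chromosome 13 from 56351866 to 56353524. It was at 22.4 FPKM in Hb9 MNs and at 1.35 FPKM in A2 MNs (log2 ratio -4.06). The control MNs thus held the pair at like levels, while in A2 MNs Neurog1 was the higher of the pair.

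Neurog3 is best known as the factor that starts endocrine cells in the pancreas, and it is also made in the ventral neural tube. Its entry spans 36266 bases, chromosome 10 from 61570403 to 61606668. It had 10.5 FPKM in Hb9 MNs and 4.12 FPKM in A2 MNs. Its log2 ratio of -1.35 was the nearest to 0 among the 7 genes, and 15.4% of all loci had a lower one. Relative to the median locus the ratio was -1.06, just past the 2-fold limit. On GRCm38 the gene Fam241b overlaps Neurog3 on the opposite strand. The library kit does not mark strand, so reads from these genes cannot be told apart where they overlap. Fam241b, listed under its older symbol 2010107G23Rik, had 24.8 FPKM in Hb9 MNs and 15.7 FPKM in A2 MNs, a log2 ratio of -0.65. Its part in the level of Neurog3 was not tested.

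The shares of the neurogenins rest on the entry of Neurog3, which overlaps Fam241b, and in A2 MNs on a level of Neurog2 under 1 FPKM. Their summed level was 52.9 FPKM in Hb9 MNs and 5.70 FPKM in A2 MNs, which is 9.29-fold lower. Neurog1 made up 42.4% of the sum in Hb9 MNs, Neurog2 37.7% and Neurog3 19.9%. In A2 MNs the largest share was that of Neurog3, at 72.4%. Neurog1 held 23.7% there and Neurog2 held 3.95%.

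**Figure D2:**
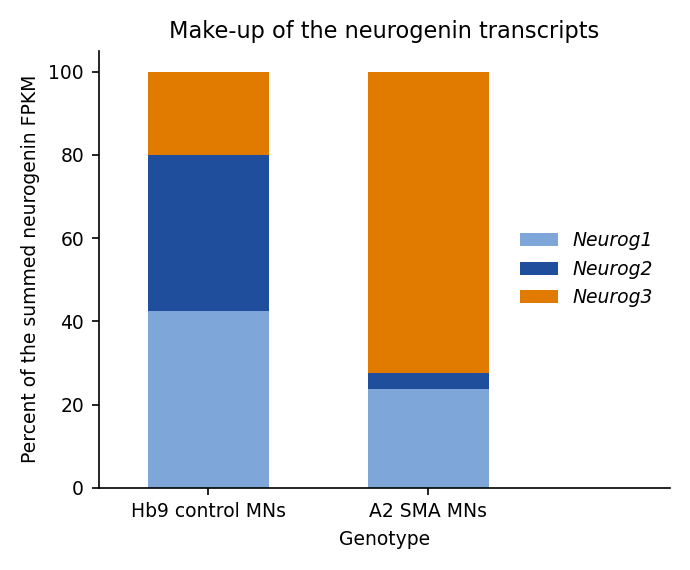
Percent of the summed FPKM of Neurog1, Neurog2 and Neurog3 that each gene takes in Hb9 and A2 MNs, 1 value per genotype. The share of Neurog3 is 19.9% in the left bar and 72.4% in the right bar, and that of Neurog2 is 37.7% and 3.95%.

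Neurod4 acts downstream of the neurogenins in newborn neurons and lies on chromosome 10 from 129705209 to 129717296. It was at 49.4 FPKM in Hb9 MNs and at 1.57 FPKM in A2 MNs. The log2 ratio of -4.97 is a 31.4-fold difference, the next largest after Neurog2 without a pseudocount and the largest with 1 FPKM. Neurod1, which drives neuronal and endocrine differentiation, is listed in 1 entry together with Cerkl, a gene that overlaps it on the same strand (chromosome 2, 79095583 to 79301264). This entry had 27.6 FPKM in Hb9 MNs and 4.94 FPKM in A2 MNs (log2 ratio -2.48). On GRCm38 the gene Gm26755 also overlaps Neurod1, on the opposite strand. How much of the entry comes from Neurod1 cannot be read from the table. Neurod1 and Neurog3 had the log2 ratios nearest to 0 of the 7 genes, and they are also the members past the filter that another annotated gene overlaps. Without these, the log2 ratios of the other 5 ran from -6.47 to -3.93 with a median of -4.06. That calculation was added after the data were seen.

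Nhlh1 marks neurons that have just left the cell cycle and was the most abundant member in Hb9 MNs, where 16.6% of loci had a higher level. It lies on chromosome 1 from 173982423 to 173987704. The level was 64.4 FPKM in Hb9 MNs and 4.23 FPKM in A2 MNs, a log2 ratio of -3.93. Insm1, on chromosome 2 from 146047657 to 146050752, had 45.1 FPKM in Hb9 MNs and 2.85 FPKM in A2 MNs. Its log2 ratio was -3.98, so Nhlh1 and Insm1 were lower by nearly the same factor, 15.2-fold and 15.8-fold. The loci closest to Nhlh1 over its 2 values were Phox2a, Hoxb5 and Dtx4. Phox2a, a homeobox factor of visceral MNs and noradrenergic neurons, had 64.4 and 3.94 FPKM. Hoxb5, a Hox gene of the hindbrain and upper spinal cord, had 69.0 and 4.22 FPKM. Dtx4, a member of the Deltex family of Notch pathway genes, had 69.3 and 4.66 FPKM, and a likeness over 2 values is only a description.

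Atoh1 and Ptf1a were near 0 in both genotypes. Atoh1, the factor of the most dorsal progenitors and of cerebellar granule cells, had 0.0607 FPKM in Hb9 MNs and 0.185 FPKM in A2 MNs. Ptf1a, which specifies inhibitory neurons of the dorsal horn and the exocrine pancreas, had 0.0516 and 0.0636 FPKM. Cuffdiff gave both the status NOTEST, which it uses for loci with too few alignments. The reads behind such values are unknown, so their ratios entered only the alternative without a filter on low values.

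In Hb9 MNs the members ran from Nhlh1 through Neurod4, Insm1, the entry of Neurod1, Neurog1, Neurog2 and Neurog3 down to Atoh1 and Ptf1a. In A2 MNs the order began with the entry of Neurod1, Nhlh1 and Neurog3 at 4.94, 4.23 and 4.12 FPKM. It went on with Insm1, Neurod4 and Neurog1, and Neurog2 stood beside Atoh1 at 0.225 and 0.185 FPKM. With 1 value per genotype, neighbours in these orders cannot be shown to differ. The summed level of the 9 genes was 239 FPKM in Hb9 MNs and 19.5 FPKM in A2 MNs.

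**Figure D3:**
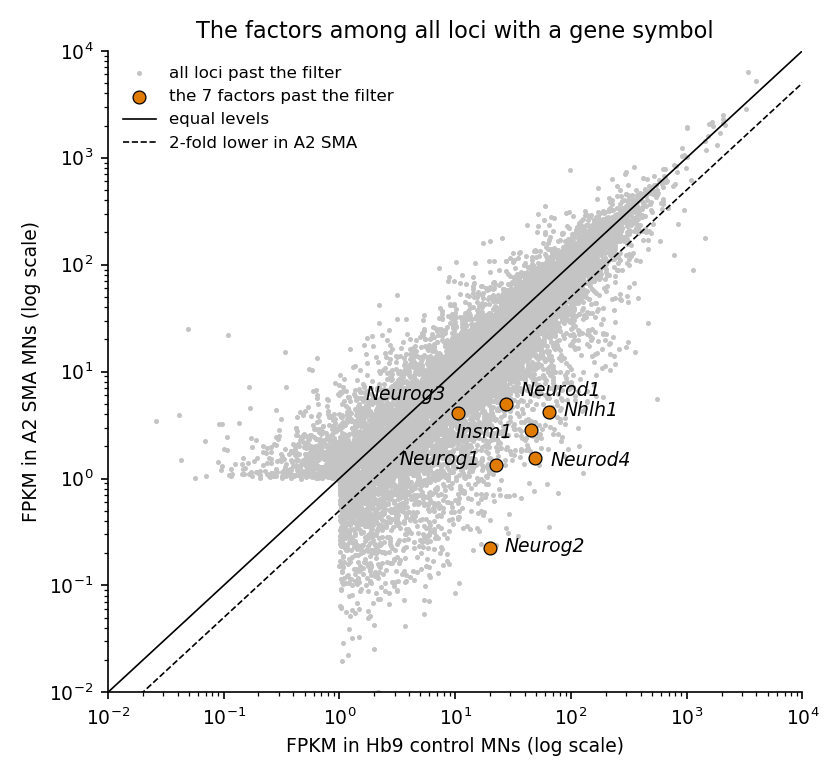
FPKM in Hb9 MNs against FPKM in A2 MNs, both on log scales, for the 14926 loci with a gene symbol past the filter (grey) and the 7 factors among them (orange). All 7 lie below the dashed line that marks a 2-fold lower level in A2 MNs, with Neurog3 nearest to it and Neurog2 farthest from it.

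The E proteins, with which the bHLH members dimerize, had log2 ratios nearer to 0 than the 7 genes. Tcf3 had 164 FPKM in Hb9 MNs and 128 FPKM in A2 MNs (log2 ratio -0.36). Tcf4 had 52.9 and 27.2 FPKM (-0.96). Tcf12 had 88.9 and 38.9 FPKM (-1.19). It was the 1 of 3 past the 2-fold limit, beside 22.4% of all loci. Relative to the median locus none of the 3 was past it, beside 16.5%. Tcf3 and Tcf12 have the status FAIL, which Cuffdiff gives where its own calculation did not complete. Summed over the E proteins, the level was 305 FPKM in Hb9 MNs and 194 FPKM in A2 MNs, 1.58-fold lower.

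The Id inhibitors were lower in A2 MNs as well. All 4 passed the 2-fold limit, beside 22.4% of all loci, and 3 did so relative to the median locus, beside 16.5%. Id1 was at 62.6 and 21.5 FPKM (log2 ratio -1.54), and Id3 at 124 and 50.5 FPKM (-1.29). Id2 was at 38.4 and 16 FPKM (-1.27). Id4, which is made in neural progenitors, was at 23.4 and 2.68 FPKM (-3.13).

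Among 7 Hes and Hey genes, 6 passed the filter and all 6 were lower by at least 2-fold (22.4% of all loci), 5 of them also relative to the median locus (16.5%). Only 3 had at least 1 FPKM in both genotypes, and Hes5, Hey2 and Heyl passed through Hb9 MNs alone. Hes6, which promotes neuronal differentiation and is switched on by neurogenins, had 103 FPKM in Hb9 MNs and 22.3 FPKM in A2 MNs. Hey1, a Notch effector, had 71.9 and 7.51 FPKM. Hes5, the Notch effector that represses proneural genes in progenitors, had 65.3 and 0.349 FPKM, a log2 ratio of -7.55.

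Other bHLH activators of neural lineages were read too, and most passed the filter only through their level in Hb9 MNs. Of 13 genes, 10 passed the filter, 9 were at least 2-fold lower, beside 22.4% of all loci, and the median log2 ratio was -4.26. With a pseudocount of 1 FPKM this median was -2.82. Nhlh2, the close relative of Nhlh1, had 50.1 FPKM in Hb9 MNs and 2.28 FPKM in A2 MNs. Olig2, which defines MN progenitors, had 32.1 and 0.704 FPKM. The gene of the 10 that was under the limit was Olig3, a factor of dorsal progenitors, at 1.6 and 1.59 FPKM, and its ratio lies above that of the median locus. Of the 13, Atoh7 was listed at 1.02 FPKM in Hb9 MNs and at 0 in A2 MNs, and Neurod2 and Neurod6 were under 1 FPKM in both. Only 2 of the 10 had at least 1 FPKM in both genotypes, and 1 of the 2 was lower by 2-fold, beside 17.8% of such loci.

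Genes known to be switched on by proneural factors were read from a list of 27, of which 25 are in the table and passed the filter (Hes6, Nhlh2, St18 and Myt1 are also on other lists). Of these, 24 were at least 2-fold lower in A2 MNs (22.4% of all loci), and 22 relative to the median locus (16.5%). The median log2 ratio was -3.22, and 21 of the 22 genes with at least 1 FPKM in both genotypes were lower, beside 17.8% of such loci. Stmn2, a microtubule regulator of growing axons, had 242 FPKM in Hb9 MNs and 78 FPKM in A2 MNs (status FAIL). Elavl4, a neuronal RNA-binding protein, had 199 and 11.3 FPKM. Cdkn1c, an inhibitor of the cell cycle, had 176 and 73.2 FPKM (status FAIL).

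Genes of the program that Neurog3 starts in the pancreas also take part in neuronal differentiation. St18 and Myt1 are on the list of targets too, and Isl1, Nkx2-2 and Pax6 are also on marker lists, so these lists are not separate evidence. Of 11, 9 passed the filter, and 8 were at least 2-fold lower, beside 22.4% of all loci. The median log2 ratio was -4.18, beside -0.29 for all loci. Isl1, the LIM homeodomain factor of MNs and islet cells, had 108 FPKM in Hb9 MNs and 5.95 FPKM in A2 MNs. The zinc finger genes St18 and Myt1 had 69.3 and 54.8 FPKM in Hb9 MNs and 2.63 and 2.39 FPKM in A2 MNs. Pax4, which is needed for beta cells, was listed at 0 FPKM in both genotypes.

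In the dorsal domains where Atoh1 and Ptf1a act, 10 of 18 listed factors were under 1 FPKM in both genotypes. Of the 8 that passed, 4 were at least 2-fold lower, beside 22.4% of all loci. None was higher by that much, beside 6.83%. The 4 lower genes passed only through their level in Hb9 MNs. Of the 3 with at least 1 FPKM in both genotypes 0 were lower by 2-fold, beside 17.8% of such loci. Lhx1, a LIM factor of interneurons and lateral MNs, had 21.2 FPKM in Hb9 MNs and 0.696 FPKM in A2 MNs. Rbpj, which pairs with Ptf1a and also carries the Notch signal, had 10.9 and 16.7 FPKM (log2 ratio 0.61). Pou4f1, a factor of sensory and dorsal neurons, had 9.06 and 5.34 FPKM.

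The corepressors that Insm1 recruits and Rest were a list of 6, and none was lower by 2-fold, beside 22.4% of all loci. With so few genes, such a count does not set the list apart from that share. Rcor2 had 267 FPKM in Hb9 MNs and 175 FPKM in A2 MNs, and Hdac2 had 210 and 132 FPKM. Kdm1a, a histone demethylase, had 204 and 199 FPKM (status FAIL), a log2 ratio of -0.04 that turns to 0.25 relative to the median locus. Rest, which silences neuronal genes outside neurons, had 16.1 and 41.4 FPKM (status FAIL). It was the 1 gene of the list called higher, beside 6.83% of all loci. Rest was singled out after its values were seen.

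**Figure D4:**
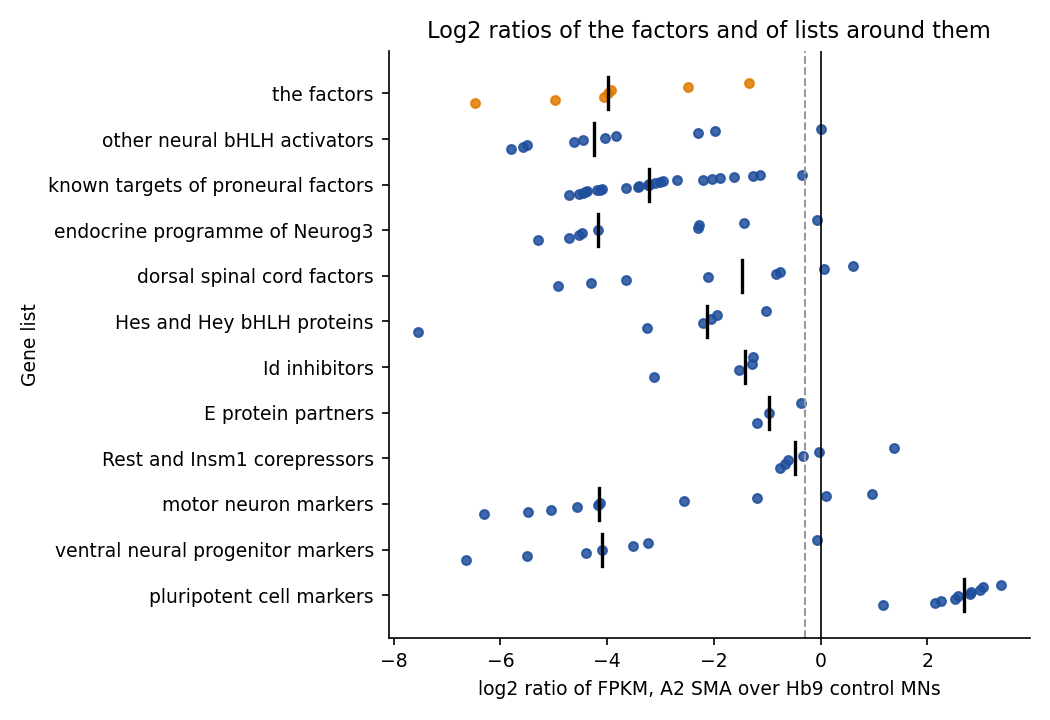
Log2 ratio of FPKM (A2 SMA over Hb9 MNs) for each gene past the filter, by list, with the factors in orange, a black bar at each median and a dashed line at the median of all loci (-0.29). The factors, their known targets and the MN and progenitor markers lie mostly left of -2, the E proteins lie between -1.19 and -0.36, the corepressors and Rest lie between -0.76 and 1.37, and the pluripotent cell markers lie right of 0.

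The identity of the samples was read from marker lists, whose counts stand beside 22.4% of all loci lower and 6.83% higher by 2-fold. Smn1 had 137 FPKM in Hb9 MNs and 5.26 FPKM in A2 MNs, in the direction of the genotypes. Mnx1, the gene whose promoter drives the reporter used for sorting, had 41.2 and 44.2 FPKM. Of 12 MN markers, 11 are in the table, 10 passed the filter and 8 were lower in A2 MNs, among them Nefm at 359 and 15.2 FPKM. Lhx3, Lhx4 and Chat passed only through Hb9 MNs, 5 of the 7 markers with at least 1 FPKM in both genotypes were lower (17.8% of such loci), and 7 of the 10 were lower relative to the median locus. Of 8 progenitor markers, 7 are in the table and 6 were lower, with Fabp7 at 553 and 5.52 FPKM and Nkx6-1 at 158 and 7.46 FPKM, although Olig2 passed only through Hb9 MNs. All 10 pluripotent cell markers were higher in A2 MNs, and none was at 0 FPKM in Hb9 MNs. Their summed level was 287 FPKM in Hb9 MNs and 1880 FPKM in A2 MNs, with Pou5f1 at 98.3 and 775 FPKM. The share of undifferentiated cells in each sort was not measured by these data, and the part of these marker differences in the levels of the factors was not tested.

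The loci around the members were read as well. Within 100 kb of the 7 genes, 16 other loci passed the filter, with a median log2 ratio of -0.46 beside -0.29 for all loci. Of the 16, 3 were at least 2-fold lower and 2 higher, beside 22.4% and 6.83% of all loci. Of the lower loci, Itga4 and 4930529M08Rik passed the filter only through Hb9 MNs. This distance was chosen after the data were seen. The locus nearest to Neurog2, 4930422G04Rik, lies 15.1 kb away and had 4.38 FPKM in both genotypes (status FAIL). Cxcl14, a chemokine gene 36.5 kb from Neurog1, had 1.44 FPKM in Hb9 MNs and 4.74 FPKM in A2 MNs. Gm5424, 35.3 kb from Neurog3, was also higher in A2 MNs, at 16.8 and 63.7 FPKM. The lower loci were Vangl2, a planar cell polarity gene 23.8 kb from Nhlh1 (log2 ratio -3.03), Itga4 in the merged locus of Neurod1 (-2.70) and 4930529M08Rik beside Insm1 (-1.36).

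**Figure D5:**
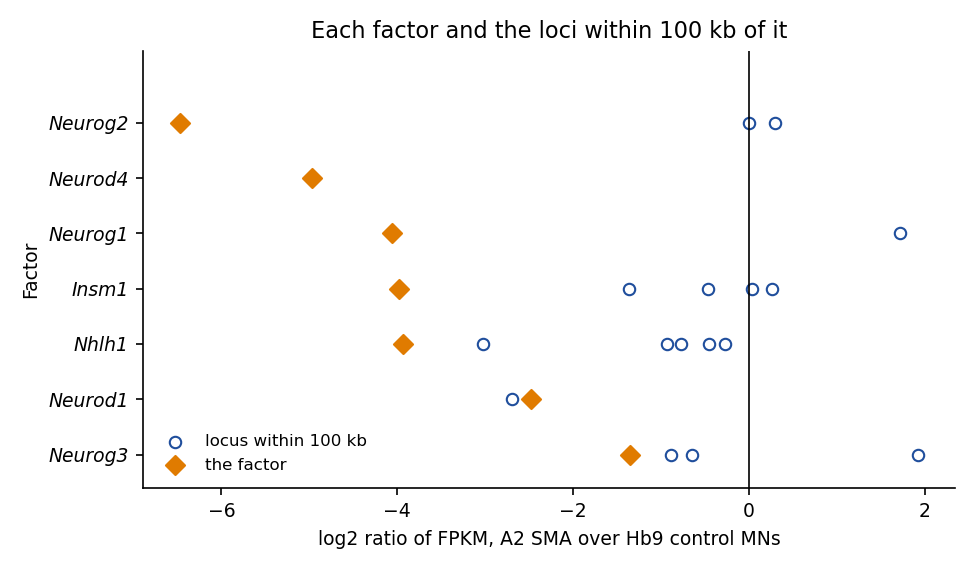
Log2 ratio of FPKM (A2 SMA over Hb9 MNs) of each of the 7 factors (diamonds) and of the other loci within 100 kb that passed the filter (open circles), 1 row per factor. The factors lie between -6.47 and -1.35, while the neighbours spread from -3.03 to 1.92, and Neurod4 has no neighbour past the filter.

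The promoters of the members were searched for E boxes and for the core of the Rbpj site. RefSeq windows on GRCm38.p6 were at hand for 8 of the 9 members, Insm1 being the one without, and the 250 bases before each start site were read on both strands. An E box, CANNTG, was found in 3 of the 8 members and in 66.2% of all 32851 promoter windows. Each of the 3 has another form of the box. They are given 5′ to 3′ with the box in capitals.
Nhlh1, chr1:172057767-172057826, minus strand: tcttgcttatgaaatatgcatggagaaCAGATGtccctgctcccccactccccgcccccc
Neurod1, chr2:79456846-79456886, minus strand: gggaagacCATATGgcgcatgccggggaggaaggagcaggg
Neurog3, chr10:62132898-62132957, plus strand: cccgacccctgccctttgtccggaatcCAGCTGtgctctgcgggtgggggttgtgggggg

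The CAGATG box of Nhlh1 begins 203 bases before the start site, and 14.4% of all windows hold this form (CAGATG or its complement CATCTG). The CATATG box of Neurod1 begins 242 bases before the start, a form present in 3.5% of windows. CAGCTG, 165 bases before the start of Neurog3, is in 13.0% of them. These forms are all instances of CANNTG, so the counts overlap. The core of the Rbpj site, TGGGAA or its complement TTCCCA, was in the windows of Nhlh1 and Ptf1a and in 21.6% of all windows. These matches describe the letters of the windows and say nothing of binding in these cells.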

How the data were processed

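RNA from FACS-collected MNs was sequenced in 3 samples per genotype as single-end reads of 50 bases. The authors checked reads with FastQC 0.10.1, trimmed them with cutadapt, mapped them to NCBI m37 with TopHat2 2.04, and obtained transcripts with Cufflinks and the deposited FPKM values with Cuffdiff, which merges the 3 samples of a genotype into 1 value. The table also holds the authors' fold changes, test statistics, p-values and q-values, which were not used. The depth behind each value is unknown. From these values no replicate spread and no test could be computed.

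Ratios, counts and medians were computed with Python 3.11.15, numpy 2.4.6 and pandas 2.3.3 and checked on simulated data, and figures were drawn with matplotlib 3.10.9. Symbols were split at commas, and the entry with the highest FPKM was kept. The genes named are the members, Smn1, Mnx1, the E proteins, the Id genes, the 3 most abundant genes of each other list and the 3 loci nearest to Nhlh1 (Euclidean distance of log2(FPKM + 0.1)). Any other gene was named after its values were seen. A gene that this rule names is not reported here. The members and lists were chosen with earlier results of these data known. Alternatives were pseudocounts, filters, scalings, summing the entries of a symbol and leaving out shared loci.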

Additional observations from a re-analysis of the deposited data

How the results depend on the processing

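The number of members called lower stayed within 1.5 times of 7 in every alternative. It was 6 where loci with several symbols were left out, with a 4-fold limit or with 1 FPKM required in both genotypes, and 5 without Neurog3 and Neurod1. The median log2 ratio of -3.98 became -3.94 with a pseudocount of 0.1 FPKM and -3.58 with 1 FPKM. Without a filter on low values, which brings in Atoh1 and Ptf1a, it was -3.93. It was -3.69 centred on the median locus, -3.70 with upper quartile scaling and -4.02 without loci of several symbols. Among alternatives added after the data were seen, it was -3.96 with 1 FPKM in both genotypes and -4.06 without Neurog3 and Neurod1. The share of loci called lower ran from 16.5% to 24.5%, apart from 8.88% with the 4-fold limit. No log2 ratio of a member past the filter changed sign. Leaving out the status FAIL, also added after the data were seen, changed neither the count nor the median of the members.

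No paired analysis was possible because the table gives 1 value per genotype and none per sample, and no replicate was left out for the same reason. The depth of single loci is unknown, so levels under 1 FPKM, such as that of Neurog2 in A2 MNs, carry the least weight.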

Other observations

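Markers of other cell types that such cultures can hold were also read, and their counts stand beside 22.4% of all loci lower and 6.83% higher by 2-fold. All 5 markers of V3 interneurons and the floor plate were at least 2-fold lower in A2 MNs, with Ntn1 at 383 FPKM in Hb9 MNs and 48.5 FPKM in A2 MNs (status FAIL), Shh at 67.2 and 12.6 FPKM, and Foxa2 at 55.9 and 18.2 FPKM. Sim1 passed the filter only through Hb9 MNs, which left 4 of 4 lower among those with at least 1 FPKM in both genotypes. Of 6 endoderm markers, 5 passed the filter and 2 were lower by 2-fold, with Gata4 at 16.9 and 10.7 FPKM (status FAIL), Foxa1 at 8.82 and 3.76 FPKM and Sox17 at 7.22 and 3.36 FPKM. Neither call held relative to the median locus. Of 6 glial markers, 4 passed and 2 were lower, with Mbp at 18 and 10.3 FPKM, Aldh1l1 at 13.9 and 3.03 FPKM and Sox10 at 6.48 and 0.525 FPKM. Sox10 passed only through Hb9 MNs, and 1 of the 3 with at least 1 FPKM in both genotypes was lower. The mESCs were grown on fibroblast feeders, and of 6 fibroblast markers 4 were lower and 1 was higher, with Col1a2 at 20.1 and 8.93 FPKM, Col1a1 at 18.9 and 9.41 FPKM (status FAIL) and Col3a1 at 15.9 and 6.57 FPKM. Of the 4 lower calls, only that of Lum held relative to the median locus, and Lum (2.14 and 0.759 FPKM) passed the filter through Hb9 MNs alone. The higher marker, Thy1 (0.97 and 2.2 FPKM), passed through A2 MNs alone.

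Some neural genes on these lists did not follow the factors, and they were picked out after their values were seen. Pax6, made in neural progenitors, had 22.4 FPKM in Hb9 MNs and 21.4 FPKM in A2 MNs. Nefh, the heavy neurofilament subunit, had 2.54 and 4.93 FPKM, while Nefl had 297 and 17 FPKM. Lhx2, a LIM factor of dorsal neurons, had 3.89 and 4.06 FPKM.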
